A study of Homo sapiens with 6 samples.

Results

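The MYC network and the MYB family are transcription factors that govern growth and division. The 10 genes described here were MYC, MAX, MXD1, MXD4, MXI1, MNT and MLXIP of the network and MYB, MYBL1 and MYBL2 of the family, of 58735 genes in the table. They were chosen by symbol with their fold changes between EZA and DMSO, the measured values behind the choice, already known, so those values are given as a description and no p-value is given for a member. Where a member is said to pass or miss a threshold, that records its place in the fit over all genes and supports nothing. RNA sequencing was done on RKO, a human colorectal carcinoma line: 3 replicates received EZA and 3 received DMSO, the control. The name EZA is used as the labels write it; dose and duration of treatment are not given there.

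MYC is a basic helix-loop-helix leucine zipper protein that binds DNA only as a dimer with MAX, mostly at the E-box CACGTG, and raises transcription of genes for ribosomes, nucleotides and metabolism. MXD1, MXD4, MXI1 and MNT compete for MAX and recruit SIN3 corepressors to the same sites, while MLXIP, also called MondoA, pairs with MLX and responds to glucose-derived metabolites. MYB keeps progenitor cells, including those of the colonic crypt, undifferentiated, and MYBL2 joins the MuvB complex to switch on genes of late cell division. MYC is commonly raised in colorectal cancer through WNT signalling.

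The promoter windows of 8 of the 10 genes were found in the RefSeq table (GRCh38.p14), which covers 250 bases before and 50 after each start site. Stretches with CACGTG are shown because they let the reader see which of these genes hold an E-box of their own. The letters CACGTG, which read the same on both strands, occurred in 3 of the 8 genes, MXD4, MNT and MYBL2, and in 8.77% of all genes with a window (7.26% of the 35116 windows). They are in capitals in the stretches from MXD4 (chr4:2262330-2262359, minus strand), MNT (chr17:2401236-2401265, minus strand) and MYBL2 (chr20:43666864-43666888, plus strand).
MXD4: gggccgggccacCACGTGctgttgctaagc
MNT: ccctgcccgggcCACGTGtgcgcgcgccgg
MYBL2: ggactgaCACGTGagccaggcctcg

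MYB and MYBL2 shared another run of letters, TTGGCGGGA, of the kind bound by E2F factors at the entry into S phase. Both stretches are shown because these are the members that hold it. It was searched on both strands and occurred in 0.388% of all genes with a window (109 of the 35116 windows). It starts 60 bases before the RefSeq start site of MYB (stretch at chr6:135181239-135181265, plus strand) and 41 bases before that of MYBL2 (chr20:43667064-43667090, plus strand), and is in capitals here. GENCODE starts MYBL2 further upstream, so there the MYBL2 stretch lies inside the gene and overlaps an annotated UTR.
MYB: gcgccagatTTGGCGGGAgggggagtg
MYBL2: ccgacgcgcTTGGCGGGAgatagaaaa

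Of the other letters searched on both strands, CAACNG, bound by MYB proteins, was found in the windows of MXD1 and MXD4 and in 37.6% of all genes with a window. TGATGNAA, read by ATF4, occurred in 0 of the 8 genes and in 4.46% of all genes with a window. TTTGAA and TTCGAA, forms of the element read by MuvB, occurred in 0 of the 8 and in 19.5% of all genes with a window. A match is a description of letters and not of binding.

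Library totals ran from 14070611 to 18840954 counts, and 13503 genes had enough counts to be tested, all 10 members among them. EZA replicate 3 differed most from the rest: its share of mitochondrial counts was 0.203%, against 3.68% to 5.02% in the other 5. Epithelial keratin KRT18 was at 110 to 136 CPM (normalised counts on a per-library scale, after TMM scaling) in the 6 libraries and EPCAM at 6.57 to 8.20 CPM, while CDH1, CDX1 and LGR5 had 0 counts, KRT19 had 2 and VIL1 had 4. The blood cell genes PTPRC, CD3E and CD14 had 0 counts. Of the listed markers of other cell types 1 had enough counts to be tested, the smooth muscle actin ACTA2, at 2.31, 3.51 and 3.45 CPM in DMSO and 5.02, 4.53 and 4.31 CPM in EZA. Its adjusted p by edgeR was 0.107, and it was called higher without EZA replicate 3, at 0.63 on the log2 scale. The summed level of the marker list was 2.60 to 3.88 CPM in DMSO and 4.35 to 5.33 CPM in EZA. This sum was taken on library totals without TMM scaling, so it is not on the scale of the ACTA2 values. The part of these markers in the results was not tested. In bulk RNA, fewer cells with a transcript and less transcript per cell cannot be told apart.

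MYC was by far the most abundant of the 10 messages per unit of length. On the deposited FPKM scale its level in DMSO was 181 ± 9.54 (SD, n = 3), followed by MYBL2 at 34.1 ± 4.77, MAX at 15.2 ± 0.505 and MLXIP at 11.5 ± 1.58. The repressors followed, with FPKM levels of 6.68 ± 1.08 for MXD4, 5.23 ± 0.339 for MXI1, 4.92 ± 0.207 for MXD1 and 2.99 ± 0.443 for MNT. MYB and MYBL1 were lowest, at 1.32 ± 0.255 and 0.769 ± 0.231 FPKM. Libraries of neighbours in this order overlapped for MXI1 and MXD1 and for MYB and MYBL1 only. The order of the 10 was the same on CPM per kilobase of the longest coding transcript, although the ratio of MYC to MAX in DMSO was 11.9 on the FPKM scale and 6.84 on the other.

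With EZA, MXD4 passed MLXIP and MXD1 passed MXI1 in this order, and MYB moved below MYBL1. In EZA the FPKM levels were 11.9 ± 0.586 for MXD4, 9.66 ± 2.13 for MLXIP, 8.70 ± 0.569 for MXD1 and 5.31 ± 2.06 for MXI1 (SD, n = 3). MYBL1 was at 0.744 ± 0.207 and MYB at 0.377 ± 0.0901 FPKM, and their libraries no longer overlapped. Those of MAX and MXD4, MLXIP and MXD1, and MXI1 and MNT overlapped in EZA.

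Between the groups, MYB was lower in EZA and the repressors MXD1 and MXD4 were higher, in every replicate. With all 6 libraries these were the 3 members with an adjusted p below 0.05 in the edgeR fit over all genes (2 higher and 1 lower). Over all genes tested 17.7% were called, 9.89% higher and 7.82% lower, and nothing is read from the members' count, since the choice of members used this contrast. The groups did not overlap in 4 members, MNT being the fourth, where 42.7% of all genes did not overlap. Without EZA replicate 3, 5 members were past the threshold (4 higher and 1 lower), and so were 38.4% of all genes (19.1% higher and 19.2% lower). The threshold of the study, a change of at least 2-fold with an unadjusted p below 0.05, was applied here to the edgeR fit. It was met by 1 member, MYB, and by 5.73% of genes. The median log2 fold change of the 10 was -0.03, against -0.01 over all genes. Log2 fold changes here are EZA over DMSO.

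**Figure D1:**
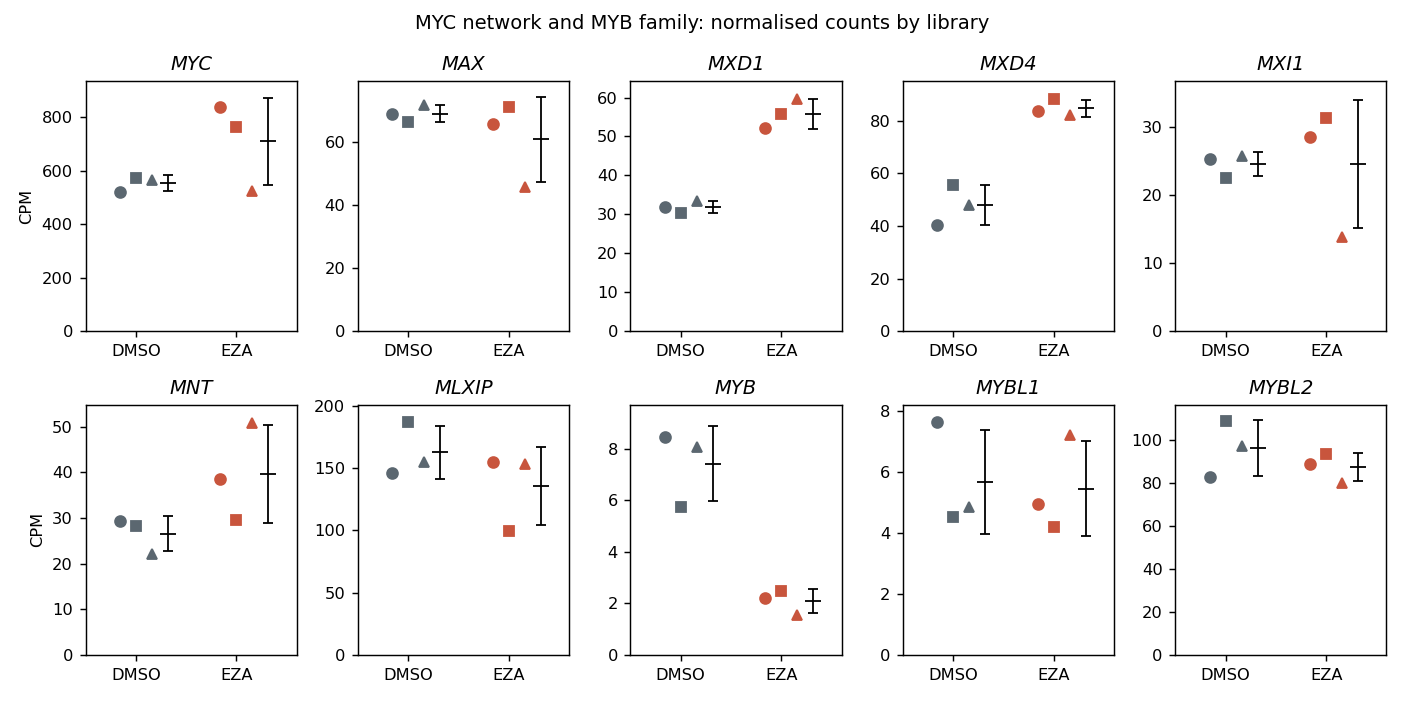
Normalised counts (CPM, vertical axis from 0) of the 10 genes in the 3 DMSO and 3 EZA libraries, with circles, squares and triangles for replicates 1, 2 and 3 and, to the right of each group, its mean and SD. MYB at 2.22, 2.48 and 1.56 CPM in EZA lies below all DMSO libraries, MXD1 and MXD4 lie above them, and in MYC the triangle of EZA replicate 3 falls among the DMSO values.

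MYC (ENSG00000136997, on chromosome 8) had 522, 575 and 566 CPM in DMSO replicates 1 to 3 and 840, 764 and 526 CPM in EZA replicates 1 to 3. The groups overlapped, because EZA replicate 3 was at the level of the DMSO libraries while the other 2 EZA libraries were above them. The log2 fold change was 0.36 ± 0.18 (SE) with all libraries and 0.53 ± 0.10 without EZA replicate 3. MYC passed the adjusted threshold without that library, where 38.4% of all genes did, and not with all 6. It was 0.22 without EZA replicate 1 and 0.30 without EZA replicate 2.

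MAX (ENSG00000125952, chromosome 14, 65006174 to 65102695), the obligate partner, had 68.6, 66.3 and 71.7 CPM in DMSO and 65.6, 70.8 and 45.6 CPM in EZA. EZA replicates 1 and 2 were within or next to the DMSO range and EZA replicate 3 was below it. On the log2 scale EZA over DMSO was -0.18 ± 0.17 (SE), and -0.01 ± 0.11 without EZA replicate 3. MAX overlaps FNTB on the opposite strand, with 679 counts beside 6217 for MAX, and the libraries do not mark strand.

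MXD1, a repressor that rises when cells leave the cycle to differentiate, had 32.0, 30.3 and 33.4 CPM in DMSO and 52.1, 55.7 and 59.7 CPM in EZA. All EZA libraries lay above all DMSO libraries, and spread within groups was small (coefficient of variation 4.77% and 6.76%). Its log2 fold change was 0.81 ± 0.13 (SE), a fold of 1.75, and it was 0.76 without EZA replicate 3. It was also past the threshold when each library's dependence on transcript GC content and length (the GC and length trend) was taken out, at 1.02, and missed it without DMSO replicate 1 (0.81) or DMSO replicate 3 (0.84). MXD1 (ENSG00000059728, chromosome 2, 69897688 to 69942945, GRCh38) overlaps SNRNP27 on the same strand, which had 1238 counts beside 4182 for MXD1 and was at -0.63 ± 0.19 (SE) on the log2 scale (adjusted p by edgeR = 0.0530).

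MXD4 (ENSG00000123933, chromosome 4, 2247432 to 2262109), a related repressor, had 40.5, 55.7 and 48.1 CPM in DMSO and 83.9, 88.2 and 82.1 CPM in EZA. The groups were apart, with EZA replicate 3 beside the other 2 EZA libraries. The log2 fold change was 0.82 ± 0.14 (SE), a fold of 1.76. The MXD4 transcript has a GC content of 63.5%, and the 1753 protein-coding genes above 60% were at a median of 0.44 on the log2 scale. Removing that trend left MXD4 at 0.41 below the threshold, which it also missed without DMSO replicate 1 (0.71) or DMSO replicate 3 (0.82). MXD1, at 42.9% GC, is in the range of 40% to 45%, where the median was -0.20.

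MNT (ENSG00000070444, chromosome 17, 2384073 to 2401104), the repressor that is expressed throughout the cell cycle, had 29.3, 28.2 and 22.2 CPM in DMSO and 38.5, 29.5 and 50.8 CPM in EZA. The groups just failed to touch, with EZA replicate 2 next to DMSO replicate 1 and EZA replicate 3 far above. Its log2 fold change was 0.58 ± 0.21 (SE), and 0.36 ± 0.14 without EZA replicate 3. With all 6 libraries it missed the threshold, except with no filter on low counts (0.56). It was past it without EZA replicate 2 (0.75) and without EZA replicate 3. Its transcript has a GC content of 61.3%. With the trend removed the value was 0.23, and 0.08 with EZA replicate 3 also left out. MNT missed the threshold in both of these fits.

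MXI1 (ENSG00000119950, chromosome 10, 110207605 to 110287365), the remaining repressor, had 25.3, 22.6 and 25.8 CPM in DMSO and 28.6, 31.4 and 13.9 CPM in EZA. EZA replicates 1 and 2 were above every DMSO library and EZA replicate 3 below every one. The log2 fold change of 0.01 ± 0.27 (SE) therefore averages libraries that moved in opposite directions, and it was 0.29 ± 0.13 without EZA replicate 3. The gap of EZA replicate 3 to the other 2 EZA libraries was -1.10 on the log2 scale, and 5.26% of tested genes were as low or lower there.

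**Figure D2:**
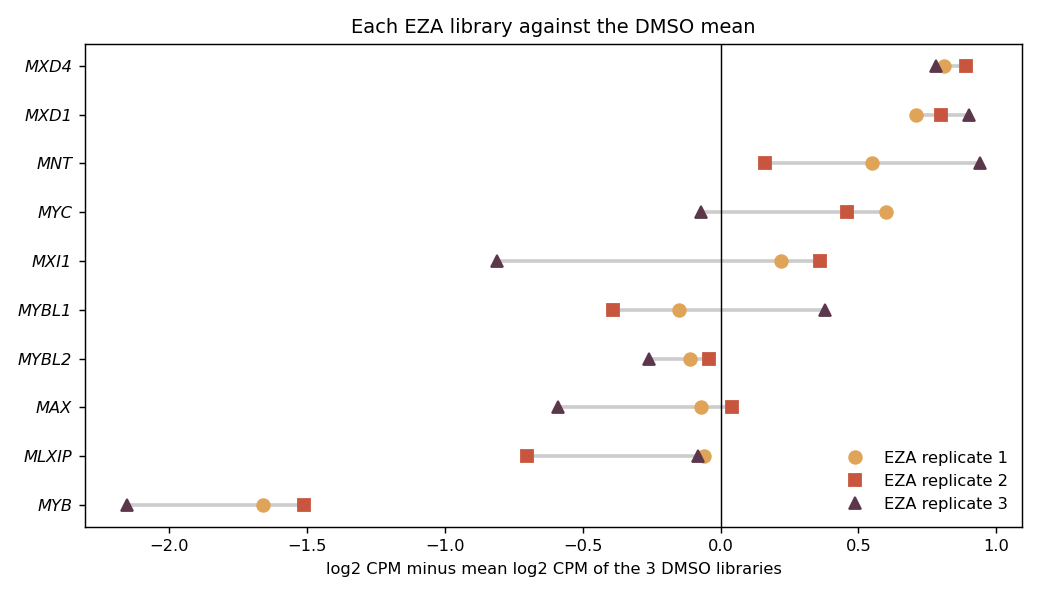
Each point is the log2 CPM of 1 EZA library minus the mean of the 3 DMSO libraries (horizontal axis), for the 10 genes ordered by log2 fold change. MXD4 (0.78 to 0.89) and MXD1 (0.71 to 0.90) are tight, MYB is between -2.15 and -1.51, and MYC, MXI1, MAX and MLXIP each have 1 library far from the other 2.

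Summed over MXD1, MXD4, MXI1 and MNT, repressor message was 19.3, 20.5 and 19.7 FPKM in the DMSO libraries and 30.3, 31.6 and 29.3 FPKM in the EZA libraries. EZA replicate 3 was close to the other EZA libraries in this sum although its makeup differed, with MXI1 at 10.1% of it against 20.2% and 21.7%. MXD1 and MXD4 together made up 54.9%, 60.9% and 59.7% of the sum in DMSO and 65.4%, 67.6% and 70.4% in EZA. The sum leaves out MXD3, a repressor, and MGA, which opposes MYC at E-boxes, as neither is among the 10 genes. MGA was at 4.57 ± 0.0510 FPKM in DMSO and 3.37 ± 0.868 FPKM in EZA (SD, n = 3 each). MXD3 was at 1.09 ± 0.203 and 1.97 ± 0.527 FPKM.

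The ratio of the repressor sum to MAX was 1.27, 1.39 and 1.25 in DMSO and 2.07, 1.97 and 2.90 in EZA, so all EZA libraries were higher. In EZA replicate 3, with the ratio of 2.90, MAX was lowest at 10.1 FPKM. The ratio of MYC to the repressor sum was 8.86, 9.22 and 9.35 in DMSO and 9.12, 8.09 and 5.87 in EZA. EZA replicate 1 was within the DMSO range in this second ratio and EZA replicate 3 was lowest. These ratios compare messages and not proteins, and they come from the values that chose the members. The GC and length trend was not taken out of the FPKM values. Its removal in the fit took MXD4 from 0.82 to 0.41 and MNT from 0.58 to 0.23 on the log2 scale. It took MXD1 from 0.81 to 1.02 and MXI1 from 0.01 to 0.15. The part of the trend in the sum and the ratios was not tested.

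**Figure D3:**
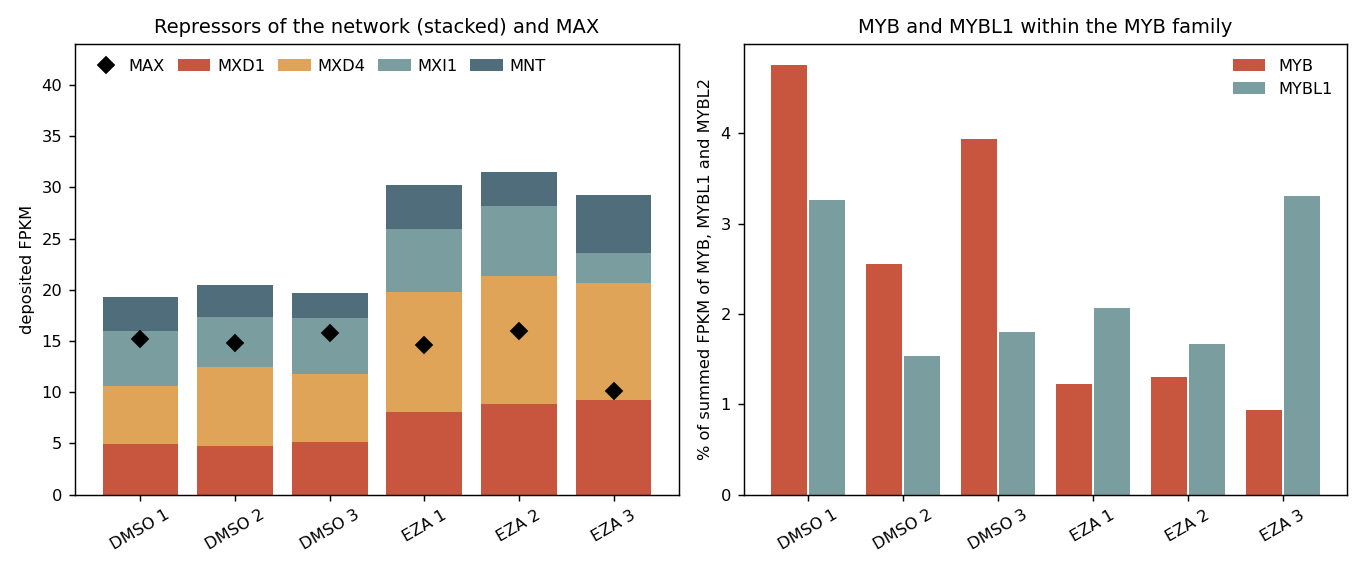
Left, stacked bars give the deposited FPKM of MXD1, MXD4, MXI1 and MNT in each of the 6 libraries, and diamonds give MAX; the stacks reach 19.3 to 20.5 in DMSO and 29.3 to 31.6 in EZA. Right, bars give MYB and MYBL1 as a percentage of the summed FPKM of MYB, MYBL1 and MYBL2, where MYB is at 2.55% to 4.75% in DMSO and 0.939% to 1.30% in EZA.

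MLXIP (ENSG00000175727, chromosome 12, 122078756 to 122147344), the glucose-responsive factor, had 146, 187 and 155 CPM in DMSO and 155, 99.9 and 153 CPM in EZA. Only EZA replicate 2 was below the DMSO range. On the log2 scale EZA over DMSO was -0.26 ± 0.19 (SE), and -0.08 without EZA replicate 2. The MLXIP transcript is 8390 bases long, and the 1111 tested genes with transcripts of at least 8000 bases had a median of -0.22 in EZA replicate 2 relative to the other 2 EZA libraries, where MLXIP had -0.62. The part of transcript length in the MLXIP value was not tested.

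MYB (ENSG00000118513, chromosome 6, 135181308 to 135219173) had 135, 90 and 126 counts in DMSO and 35, 45 and 22 counts in EZA, or 8.45, 5.75 and 8.05 CPM and 2.22, 2.48 and 1.56 CPM. The groups were far apart, the highest EZA library lying below the lowest DMSO library. The log2 fold change was -1.81 ± 0.25 (SE), which is 0.284 of the DMSO level. Over the 17 settings MYB ran from -1.96 to -1.52, and it was at -1.66 after removal of the GC and length trend. Its antisense gene MYB-AS1 had 0 counts.

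The genes on either side of MYB had smaller differences than MYB. HBS1L, a translation factor whose gene lies 78252 bases away, was at -0.24 ± 0.14 (SE) on the log2 scale (adjusted p by edgeR = 0.263). AHI1, a gene of the primary cilium at 64234 bases on the other side, fell by 0.61 ± 0.15 on the log2 scale (adjusted p by edgeR = 0.0285). Beside MYC, the noncoding PVT1 had 39.9, 43.5 and 40.7 CPM in DMSO and 48.8, 51.5 and 58.5 CPM in EZA, which is 0.35 ± 0.13 (SE) on the log2 scale (adjusted p by edgeR = 0.0867). Unlike MYC, PVT1 was highest in EZA replicate 3.

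MYBL1 (ENSG00000185697, on chromosome 8), a family member best known from the male germline, had 7.63, 4.53 and 4.86 CPM in DMSO and 4.95, 4.20 and 7.21 CPM in EZA. The groups overlapped, and 1 library was high in each. On the log2 scale EZA over DMSO was -0.07 ± 0.28 (SE) and ran from -0.31 to 0.30 over the 17 settings.

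MYBL2 (ENSG00000101057, chromosome 20, 43667019 to 43716495), the proliferation-linked member, had 82.7, 109 and 97.3 CPM in DMSO and 88.9, 93.4 and 80.2 CPM in EZA. Only EZA replicate 3 was below the DMSO range. Its log2 fold change was -0.14 ± 0.14 (SE). Its transcript has a GC content of 60.5%. After removal of the GC and length trend the value was -0.48 and past the threshold, where 11.4% of all genes were. With replicate number added to that fit as a block, MYBL2 was again at -0.48 and missed the threshold. Over the 17 settings it passed under 2. MYBL2 made up 92.0% to 95.9% of the family's FPKM in DMSO and 95.8% to 97.0% in EZA, and its ratio to MYB was 19.4 to 37.6 in DMSO and 74.4 to 102 in EZA.

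**Figure D4:**
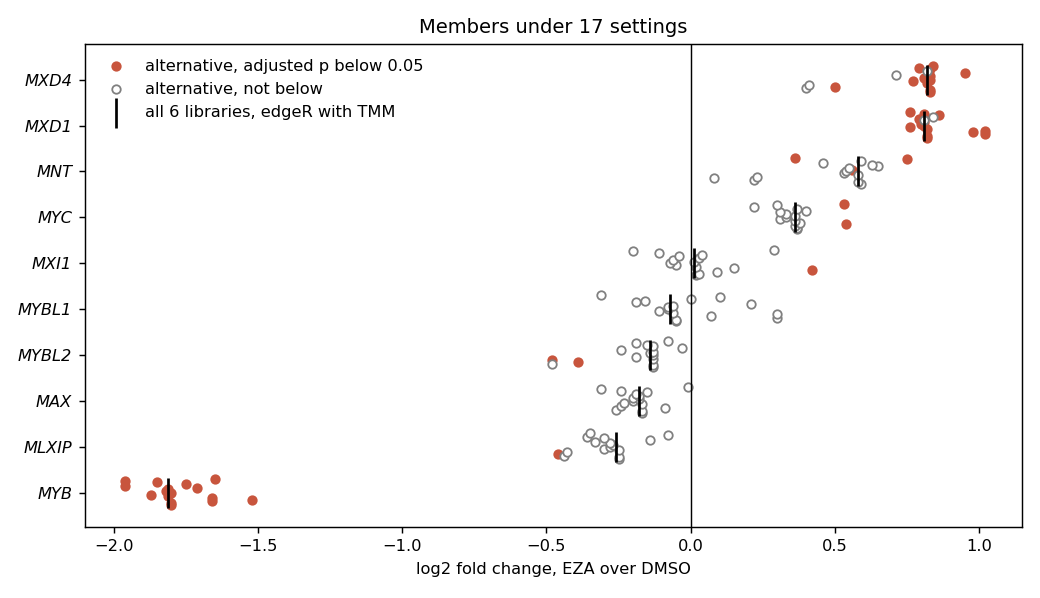
Log2 fold change of each of the 10 genes (horizontal axis) with all 6 libraries and edgeR (vertical bar) and under the alternatives (circles, filled where the adjusted p was below 0.05). MYB stays between -1.96 and -1.52 and is filled throughout, while MXD4 drops to 0.40 and MXI1 and MYBL1 lie on both sides of 0.

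Partners and targets of these factors were counted from 10 lists of textbook roles, which were drawn up with earlier results of these data known. Called genes are those with an adjusted p by edgeR below 0.05 over all 13503 genes. With all libraries 10 of 148 tested list genes were higher and 31 lower, members not counted, where 9.89% of all genes were higher and 7.82% lower. These shares are the background for each list's counts in this fit below. The counts fell to 1 higher and 5 lower without DMSO replicate 1, and 2 higher and 6 lower without DMSO replicate 3. Calls over all genes fell as well, from 1336 higher and 1056 lower to 158 and 62, and to 181 and 73. Without DMSO replicate 2 the lists held 4 higher and 12 lower, and all genes 488 and 299. Without EZA replicate 3 the list counts were 23 and 57, where 19.1% of all genes were higher and 19.2% lower.

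Of the other network factors 1 of 4 tested rose. MXD3, a repressor expressed in dividing cells, rose from 5.74 ± 1.07 to 10.3 ± 2.83 CPM (SD over 3 libraries each), up by 0.84 ± 0.24 (SE) on the log2 scale (adjusted p by edgeR = 0.0441), and was called under 8 of the 17 settings. The call was lost with scaling by library size alone, with limma-voom, after removal of the GC and length trend (0.65), and without any 1 of the DMSO libraries or EZA replicate 2. It overlaps PRELID1 and RAB24. MGA, which opposes MYC at E-boxes, had 83.3, 81.6 and 82.0 CPM in DMSO and 58.4, 45.0 and 77.1 CPM in EZA (adjusted p by edgeR = 0.121). MGA passed the threshold without EZA replicate 3, at -0.67 on the log2 scale, and so did MYCL at 0.81. MLX, the partner of MLXIP, had 58.3, 55.6 and 59.7 CPM and 63.5, 69.3 and 34.9 CPM (adjusted p by edgeR = 0.905), with EZA replicate 3 lowest as in MAX and MXI1. MYCL was at 0.63 ± 0.25 (SE) on the log2 scale (adjusted p by edgeR = 0.114). MYCN had 1 count in all and MLXIPL 85, and neither was tested.

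Among 15 cofactors and corepressors, 1 rose and 1 fell (median log2 fold change -0.21), where 9.89% of all genes were higher and 7.82% lower. ZBTB17, also called MIZ1, through which MYC represses genes, rose from 34.3 ± 4.80 to 48.6 ± 2.27 CPM (SD, n = 3 each; adjusted p by edgeR = 0.0430). SIN3A, the scaffold that MXD proteins recruit, fell from 91.1 ± 3.07 to 62.0 ± 12.5 CPM (adjusted p by edgeR = 0.0413). Both lost their calls after removal of the GC and length trend, where they were at 0.11 and -0.44 on the log2 scale. The calls were also lost without any 1 of the DMSO libraries or without EZA replicate 2. ZBTB17 was also not called with scaling by library size alone, with replicate number as a block, or without EZA replicate 1. Over the 17 settings ZBTB17 was called under 7 and SIN3A under 11.

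Among 16 regulators of MYC protein stability 3 were higher and 5 lower (median log2 fold change -0.24), where 9.89% of all genes were higher and 7.82% lower. PIM1, a kinase that stabilises MYC by phosphorylation, rose from 8.77 ± 0.316 to 21.9 ± 1.01 CPM (SD over 3 libraries each), up by 1.32 ± 0.14 (SE) on the log2 scale (adjusted p by edgeR = 0.00132), and was called under all 17 settings. AURKA, a mitotic kinase that can shield MYC proteins from FBXW7, fell from 111 ± 9.10 to 59.2 ± 9.90 CPM (adjusted p by edgeR = 0.00885). SKP2, a ubiquitin ligase subunit, and CIP2A, an inhibitor of the phosphatase that destabilises MYC, were at -0.82 ± 0.14 and -0.76 ± 0.15 (SE) on the log2 scale (adjusted p by edgeR = 0.0102 and 0.0155). With the trend removed 1 gene of the list was higher and 3 lower, where 11.4% of all genes were called. SKP2 was then at -0.49, and CIP2A was at -0.37 and lost its call. Without DMSO replicate 1 or 3, only PIM1 of this list was called.

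Of 11 tested genes that act on the MYC promoter or message, 0 were called by edgeR, while 4 had an unadjusted p below 0.05, limma-voom called 1 and DESeq2 called 2. TCF7L2, the WNT effector that binds MYC enhancers, was at 27.6, 25.9 and 29.6 CPM in DMSO and 20.8, 14.7 and 8.34 CPM in EZA (adjusted p by edgeR = 0.0506). FUBP1, which binds single-stranded DNA upstream of MYC, was at 157, 134 and 155 CPM and 101, 100 and 43.6 CPM (adjusted p by edgeR = 0.0649). Both were chosen after their values were seen, and in both EZA replicate 3 was lowest. Without that library both passed the threshold, at -0.64 and -0.56 on the log2 scale.

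Genes activated by MYC were mostly not called: of 44 tested, 0 rose and 7 fell, where 9.89% of all genes rose and 7.82% fell. Their median log2 fold change was -0.17, against -0.01 over all genes. DESeq2 called 2 higher and 10 lower. The letters CACGTG were in the promoter windows of 20 of the 36 listed genes with a window (55.6%), against 8.77% of all genes with one. Such letters are likely in genes listed as MYC targets, so nothing is read from that share. LDHA, lactate dehydrogenase, fell from 1033 ± 73.6 to 567 ± 79.0 CPM (SD, n = 3 each; adjusted p by edgeR = 0.0102), and HSPE1, the mitochondrial co-chaperonin, from 116 ± 8.27 to 61.2 ± 15.2 CPM (adjusted p by edgeR = 0.0135). NOLC1, a nucleolar phosphoprotein, and EIF4E, the cap-binding translation factor, were at -0.59 ± 0.11 and -0.50 ± 0.12 (SE) on the log2 scale (adjusted p by edgeR = 0.0129 and 0.0280), and EIF4E was at -0.14 after removal of the GC and length trend. Without EZA replicate 3, 5 genes of the list were higher and 17 lower, where 19.1% of all genes were higher and 19.2% lower. After removal of the GC and length trend 0 were higher and 7 lower (median -0.19), where 11.4% of all genes were called. Without DMSO replicate 1 or 3 the count was 0.

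Of genes repressed by MYC, 4 of 8 tested rose and 0 fell, where 9.89% of all genes were higher and 7.82% lower. The median log2 fold change was 0.56, against -0.01 over all genes, and 0.41 after removal of the GC and length trend. The list's transcripts have a median GC content of 57.8%. Protein-coding genes between 55% and 60% were at a median of 0.20 on the log2 scale. GADD45A, a stress gene that other factors also induce, rose from 79.1 ± 4.76 to 216 ± 83.6 CPM (SD, n = 3 each; adjusted p by edgeR = 0.00838), with EZA replicate 3 at 312 CPM and the other 2 at 167 and 168. CDKN1A, a CDK inhibitor, rose from 256 ± 22.8 to 362 ± 17.2 CPM (adjusted p by edgeR = 0.0296). CEBPA and CDKN1C, a differentiation factor and a CDK inhibitor with GC-rich transcripts, were at 0.62 ± 0.18 and 0.81 ± 0.24 (SE) on the log2 scale (adjusted p by edgeR = 0.0439 and 0.0457). After removal of the GC and length trend or with scaling by library size alone, 2 of the 8 were higher, and the trend's removal left CDKN1A at 0.24, CDKN1C at 0.32 and CEBPA at 0.10, none of them called, and without DMSO replicate 1 the count was 0.

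Of 6 tested target genes of MLXIP and its relative MLXIPL, 1 rose. TXNIP, an arrestin-related protein that limits glucose uptake and the classic readout of MLXIP activity, was at 26.0, 24.8 and 24.5 CPM in DMSO and 42.6, 50.2 and 40.0 CPM in EZA. All EZA libraries were higher, by 0.82 ± 0.14 (SE) on the log2 scale (adjusted p by edgeR = 0.00881), and the call was lost without DMSO replicate 1 or 3. Its relative ARRDC4 was at 7.26, 6.96 and 8.18 CPM and 11.0, 9.77 and 17.0 CPM (adjusted p by edgeR = 0.0514). HK2 and PFKFB3, of glycolysis, were at -0.04 ± 0.26 and 0.08 ± 0.18 (SE) on the log2 scale (adjusted p by edgeR = 0.937 and 0.791). After removal of the GC and length trend, 3 genes of the list were higher.

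The partners of MYBL2 were lower or not called. Of 13 genes of the MuvB core and the DREAM complex 4 fell and 0 rose (median log2 fold change -0.21). FOXM1, which follows MYBL2 onto MuvB, fell from 144 ± 4.50 to 75.5 ± 28.8 CPM (SD, n = 3 each; adjusted p by edgeR = 0.0394), and EZA replicate 3 was lowest at 43.4 CPM. TFDP1, the E2F dimer partner, and LIN9, a MuvB subunit, were at -0.50 ± 0.12 and -0.78 ± 0.20 (SE) on the log2 scale (adjusted p by edgeR = 0.0254 and 0.0307). RBL1, a pocket protein, was just past the threshold (adjusted p by edgeR = 0.0499) and lost its call under 12 of the 17 settings. LIN9 lost its call after the trend's removal, at -0.55. Without any 1 of the DMSO libraries 0 of the 13 were called.

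Genes that MYBL2, MuvB and FOXM1 switch on for mitosis were lower as a list: 14 of 25 fell, 0 rose, and the median log2 fold change was -0.77, or -0.59 after removal of the GC and length trend, where 11 fell. The fall of mitotic genes was known from earlier results of these data when the list was drawn up, and the median GC content of its transcripts is 42.3%. The letters TTTGAA or TTCGAA were in the windows of 15 of the 20 listed genes with a window (75.0%), against 19.5% of all genes. Such letters are likely in genes listed as MuvB targets, so nothing is read from that share. BUB1, a spindle checkpoint kinase, fell from 133 ± 12.2 to 66.4 ± 3.16 CPM (SD, n = 3 each; adjusted p by edgeR = 0.00314). CENPE, a kinetochore motor, fell from 13.3 ± 1.21 to 4.91 ± 0.911 CPM (adjusted p by edgeR = 0.00394). ECT2 and CDC20, of cytokinesis and of the anaphase-promoting complex, were at -0.92 ± 0.13 and -0.87 ± 0.13 (SE) on the log2 scale (adjusted p by edgeR = 0.00509 and 0.00586). These 4 genes were called under all 17 settings. The list's count was 4 and 5 without DMSO replicate 1 or 3 and 21 without EZA replicate 3. MYBL2 itself was at -0.14 in the fit where the list's median was -0.77, and at -0.48 where that median was -0.59. In the second of these fits MYBL2 passed the threshold, as did 11.4% of all genes. MYBL2 missed the threshold when replicate number was added to that fit as a block.

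Of 9 tested genes listed as targets of MYB, 0 rose and 2 fell, and 6 more, among them KIT, had too few counts. CCNB1, the mitotic cyclin, which is also in the list above, fell from 191 ± 15.7 to 119 ± 11.3 CPM (SD, n = 3 each; adjusted p by edgeR = 0.0120), and was not called without DMSO replicate 1 or 3. The list also holds MYC. BIRC3, an inhibitor of apoptosis that other factors also induce, was at 13.3, 11.5 and 13.2 CPM in DMSO and 4.70, 4.25 and 4.67 CPM in EZA, -1.48 ± 0.16 (SE) on the log2 scale (adjusted p by edgeR = 0.00180). BCL2, an apoptosis inhibitor often named as a MYB target, was at -0.22 ± 0.16 (SE) on the log2 scale (adjusted p by edgeR = 0.354); it was chosen after its value was seen.

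**Figure D5:**
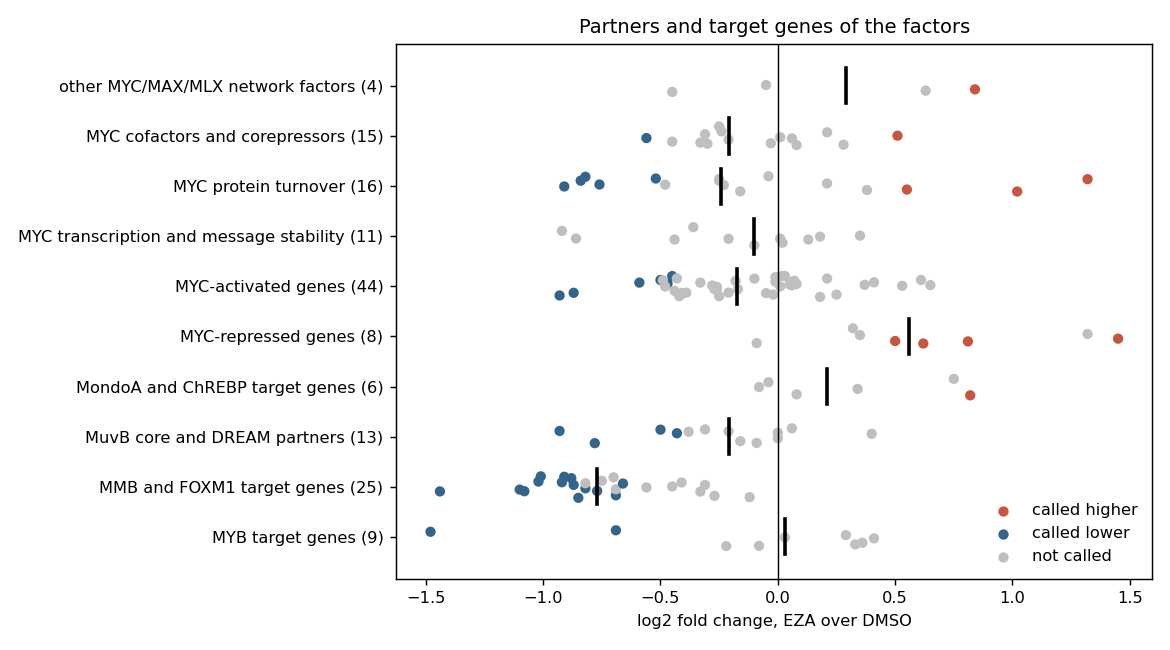
Each point is 1 tested gene of a list, placed by its log2 fold change (horizontal axis) and coloured by its call, with the number tested in parentheses and a bar at the list's median. The targets of MuvB, MYBL2 and FOXM1 have a median of -0.77 and the MYC-repressed genes one of 0.56, while the MYC-activated genes spread around -0.17. With the GC and length trend removed these medians were -0.59, 0.41 and -0.19.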

How the data were processed

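The 3 DMSO and 3 EZA libraries were made from poly(A) RNA of RKO cells without strand information, per the labels. Alignment and counting tools named in the submitters' processing notes are HISAT2 and featureCounts, beside FastQC and DESeq2, with the build GRCh38; versions, options and annotation are not stated there. The authors deposited raw counts per Ensembl gene and FPKM values; counts were used for every test and FPKM only for levels between genes. Symbols, positions, overlaps, transcript length and GC content came from GENCODE 44 (58207 of 58735 identifiers found).

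The members and lists were chosen with earlier results of these data known. Titles gave each sample's group and replicate number. After filterByExpr and TMM scaling, edgeR's robust quasi-likelihood test (two-sided, Benjamini-Hochberg adjustment) was fitted; standard errors came from the F statistic. Besides all 10 members, up to 4 genes per list with the smallest adjusted p and 1 called the other way were named, and lists of up to 8 genes could be named in full. Replicates differed by more than counting noise (chi-square per degree of freedom 4.75 to 115); whether they were separate cultures is not stated (they are called biological replicates and no more), so the spread behind each p-value may be partly technical. The fit was tested on simulated data. Versions were edgeR 4.0.16, DESeq2 1.42.0 and limma 3.58.1 under R 4.3.3, beside Python 3.11.15. There were 16 alternatives: other scalings, no filter, DESeq2, limma-voom, the replicate block, each library left out, and removal of each library's trend with GC content and length (lowess, span 0.3), alone and with other changes. Some genes that the naming rule or the marker lists cover are not reported here.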

Additional observations from a re-analysis of the deposited data

How the results depend on the processing

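Over all genes, 1336 were called higher and 1056 lower; removing the GC and length trend left 883 and 658, 383 and 234 with that and the replicate block, and 2773 and 2540 with the trend removed and EZA replicate 3 left out. Leaving out 1 library gave 158 to 2640 higher and 62 to 2649 lower. Of the members, 2 were higher and 1 lower; with the trend removed 1 and 2, with the block added 1 and 1, and with the trend removed and EZA replicate 3 left out 4 and 3. Leaving out 1 library gave 0 to 4 higher and 1 lower. Of the genes in the 10 lists, 10 were higher and 31 lower; 6 higher with scaling by library size alone, 6 higher with the trend removed, 4 and 11 with the block added, and 23 and 71 with the trend removed and EZA replicate 3 left out. Leaving out 1 library gave 1 to 23 higher and 5 to 57 lower. The ratio of MYC to MAX in DMSO was 6.84 on CPM per kilobase. The cause of these shifts was not tested. Of 160 member values under alternatives, 148 moved by less than the SD between replicates and 12 by more, and no called one changed sign. The 12 were those of MXD1, MXD4, MNT and MYBL2 with the trend removed.

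Same-numbered replicates did not deviate together (correlations 0.0327, -0.1747 and 0.0266), so the numbers were not used as pairs; the replicate block alone gave 1133 higher and 837 lower genes, 2 and 1 members and 8 and 29 list genes. Each group of 3 libraries limits what can be called, MYB and MYBL1 rest on at most 135 counts per library, and counts of overlapping genes are uncertain without strand.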

Other observations

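Among 10392 genes with at least 5 CPM on average, those whose log2 CPM lay closest to MXD4 over the 6 libraries, after centring each gene on its mean, included SIX5, a homeobox factor, and ALKBH7, a mitochondrial protein of the AlkB family. Their Euclidean distances from MXD4 were 0.10 and 0.12, and their log2 fold changes were 0.84 and 0.77. Those closest to MYB were SEMA3C, a secreted semaphorin, MAP1LC3C, an autophagy protein of the LC3 family, and DDIAS, an apoptosis suppressor, at distances of 0.57, 0.59 and 0.61 and log2 fold changes of -1.45, -1.48 and -1.37. Nothing lay as close to MYB as SIX5 and ALKBH7 lay to MXD4. MYB had 22 to 135 counts per library and MXD4 647 to 1597, and the part of counting noise in these distances was not tested. Mean CPM of SEMA3C went from 11.6 ± 1.39 to 4.24 ± 1.40 (SD, n = 3 each) between DMSO and EZA, and that of ALKBH7 from 28.8 ± 4.34 to 49.2 ± 2.39.

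Of the nearest tested genes on either side of the 4 repressors, 3 of 8 were called by edgeR, 1 higher and 2 lower. The share called over all genes tested was 17.7%, with 9.89% higher and 7.82% lower, and nothing is read from the count of 3. SGSM2 and METTL16, on either side of MNT at 3015 and 4458 bases, had log2 fold changes of 0.70 ± 0.16 and -0.52 ± 0.14 (SE; edgeR adjusted p = 0.0243 and 0.0379). ADD3, 72040 bases from MXI1, had -0.65 ± 0.18 (edgeR adjusted p = 0.0417). HAUS3 and ZFYVE28, beside MXD4, had -0.35 ± 0.26 and 0.63 ± 0.20 (edgeR adjusted p = 0.367 and 0.0598). SMNDC1, on the other side of MXI1, had -0.30 ± 0.14, and GMCL1 and PCBP1-AS1, beside MXD1, had 0.16 ± 0.25 and -0.04 ± 0.18 (edgeR adjusted p = 0.172, 0.680 and 0.906).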
